A study of Sus scrofa with 6 samples.

Results

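Late pregnant (LP) uterine tissue was set against early pregnant (EP) uterine tissue, taken from sows and labelled myometrium, the smooth muscle wall of the uterus. The members are 2 of the 6 arrays of the series, and each is the single array of its stage. The other arrays held uterine tissue of non-pregnant (NP) sows and LP, EP and NP ovary. The labels give neither breed, age nor day of pregnancy. The design text counts 9 pigs, 3 per stage, and whether an array carried RNA of 1 animal or of several was not given. With 1 array per group there is no replicate error and no test, so every difference is one between 2 arrays.

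In the pig, the embryo and its membranes attach to the uterine lining without invading it. Early in pregnancy the outer cell layer of the conceptus, the trophectoderm, elongates and secretes oestrogen and interferon gamma, and the uterine glands feed the conceptus with secreted proteins. Later a folded placenta of many small contact zones carries sugars, amino acids, iron and calcium from sow to fetus. Smooth muscle, glands, lining, membranes and placenta lie close together, so a piece of uterine wall can carry RNA of several of them. In whole tissue, fewer cells of a type and less RNA per cell cannot be told apart.

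Values are MAS5 signals, the brightness of a probe set on a linear scale that the authors had brought to a common level on all arrays. Signals below 81.7, the 40th percentile of all signals, were raised to that floor before log2 was taken, and a ratio with the dimmer array under the floor is given as "at least". Of 6567 named genes, 5613 exceeded the floor in LP or EP tissue, or in both, and are called measured. Of these, 321 genes (5.72%) were 2-fold or more higher in LP than in EP tissue and 312 (5.56%) were 2-fold or more lower. Counted by probe set, 912 were higher and 873 lower among 15537, and 482 and 461 of those had no gene name here. The median log2 ratio over all measured genes was -0.005. The shares of 5.72% and 5.56% are the yardstick for every list count in uterine tissue below.

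Technical readings of the LP and EP arrays were alike in some measures and apart in others. The share of probe sets above the floor was 60.4% on the LP and 60.2% on the EP array. The 3' to 5' signal ratio of GAPDH, a measure of RNA quality, was 1.53 on the LP and 1.70 on the EP array, and that of actin was 2.76 and 2.64 in the same order. The 28S ribosomal RNA probe set read 4360 in LP and 7575 in EP tissue, and the poly-A spike controls averaged 1008 and 637 in that order. The highest signals were 34858 (LP) and 38577 (EP). Among 1521 measured genes with a further measured probe set, the log2 ratios of the brightest and the next probe set differed by a median of 0.33, with a 90th percentile of 0.92.

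Both arrays carried epithelial and placental genes beside smooth muscle genes, which bears on the label. Of 10 smooth muscle markers, 8 are on the array, and 8 lay above the floor in LP and 7 in EP tissue. Their summed signal was 23448 in LP and 21515 in EP tissue, against 11696 on the NP array and 26894 to 40472 on the ovary arrays. The sum was thus no higher in uterine tissue than in ovary. ACTA2, which made up most of it, read 14389 in LP and 13313 in EP tissue and 18571 to 23509 in ovary. ACTG2 read 3766 and 2984, against 2014 (LP), 5036 (EP) and 1994 (NP) in ovary. MYH11 and LMOD1, further defining smooth muscle genes, had no named probe set. All 7 epithelial markers lay above the floor on both arrays, with summed signals of 46057 (LP) and 37333 (EP), whereas the ovary arrays summed to 680 to 1035. The adhesion molecule EPCAM read 9667 in LP, 10845 in EP and 10256 in NP tissue. Of 8 trophoblast markers on the array, PEG10 among them, 6 lay above the floor in LP and 8 in EP tissue, against 2 on the NP array. In ovary 4 (LP), 5 (EP) and 4 (NP) of them also lay above it. PLET1, a gene of the placental lineage in mouse, read 31638 in LP and 32821 in EP tissue and 49.1 on the NP array. In ovary PLET1 read 14.2 (LP), 1661 (EP) and 140 (NP). GATA3, a transcription factor of trophoblast, read 2778 and 3168 in LP and EP tissue and 59.2 in NP tissue. The part of conceptus tissue in the differences that follow was not tested.

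HBE1, DPPA5 and IFNG had the lowest ratios of all measured genes, and ETNPPL and HP the highest. HBE1, the epsilon globin of embryonic red cells, read 64.1 in LP and 20201 in EP tissue. It lay under the floor on all 4 other arrays, at 44.3 or below, and was at least 247-fold lower in LP than in EP tissue. DPPA5, an RNA-binding protein of pluripotent cells, read 266 in LP, 24720 in EP and 13.8 in NP tissue, which made it 92.8-fold lower in LP tissue. In ovary it read 178 (LP), 701 (EP) and 478 (NP), also lower at the later stage. IFNG, which encodes interferon gamma, read 64.8 in LP and 1720 in EP tissue and lay under the floor on the NP and all ovary arrays, so that it was at least 21.0-fold lower in LP tissue. HBE1 and IFNG were thus above the floor on 1 of the 6 arrays. Of 3 fetal red cell markers on the array, 2 lay above the floor in LP and 3 in EP tissue. Their summed signals were 2019 (LP) and 21147 (EP), and HBE1 itself made up most of the EP sum. The other markers, ALAS2 (1758 in LP and 768 in EP tissue) and HBM (197 and 177), did not read lower in LP tissue. On the NP uterine array 2 of the 3 also lay above the floor. The part of fetal red cells in these differences was not tested.

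On the other side, haptoglobin (HP), which binds free haemoglobin, read 30784 in LP, 893 in EP and 13.7 in NP tissue. HP was 34.5-fold higher in LP tissue, and in LP ovary it was 4.52-fold higher than in EP ovary (14136 and 3129). PEG10, an imprinted gene needed to build the placenta in mouse, read 8302 in LP, 435 in EP and 351 in NP tissue and between 370 and 973 in ovary. It was 19.1-fold higher in LP tissue, and its dimmer probe set also read higher there (306 and 27.3). ETNPPL, an enzyme that breaks down phosphoethanolamine, read 8056 in LP and 66.6 in EP tissue. All 5 arrays other than LP uterine tissue read 66.6 or less, and the ratio was at least 98.6-fold.

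**Figure D1:**
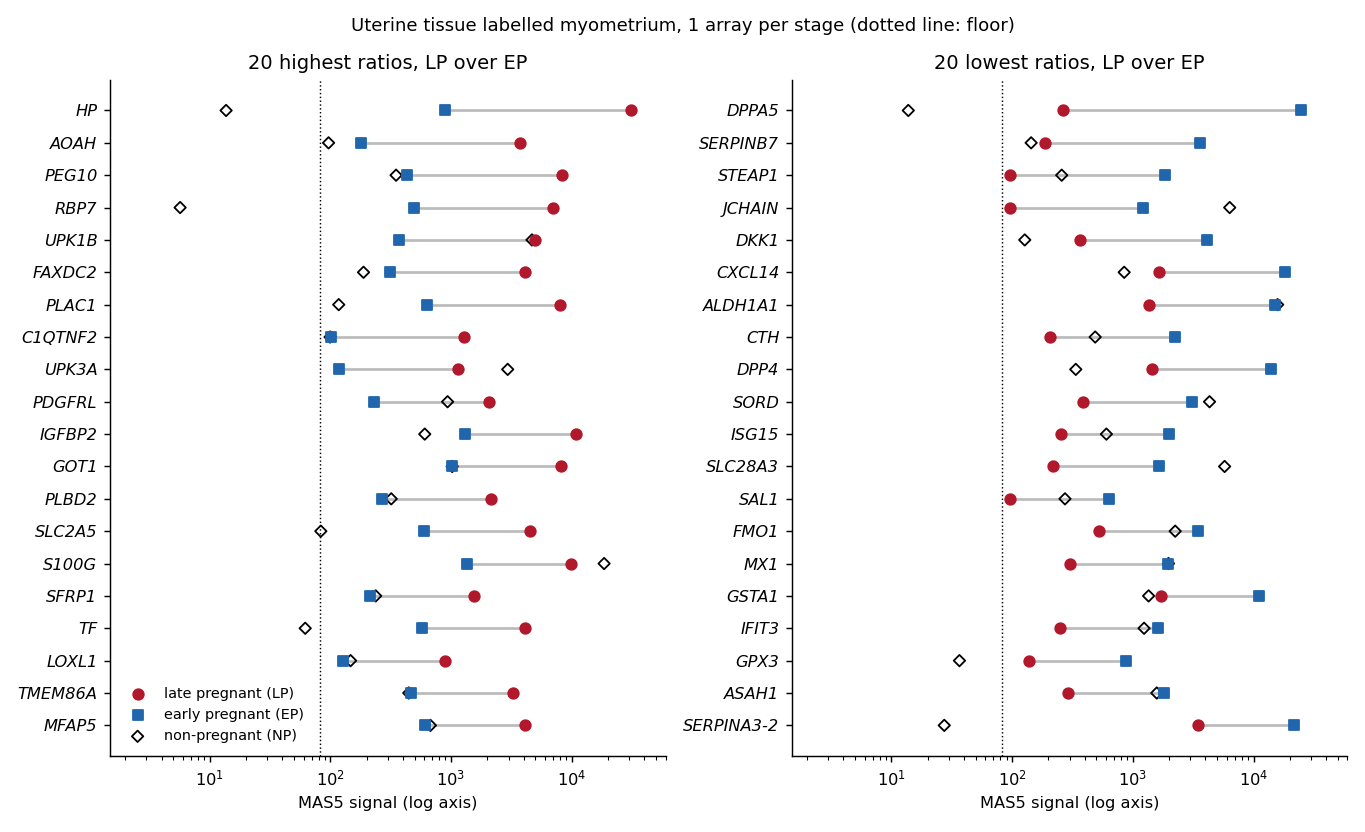
Signals (log axis, MAS5 units) of the 20 genes with the highest and the 20 with the lowest LP over EP ratio among genes above the floor on both arrays; red circles are the LP, blue squares the EP and open diamonds the NP array of uterine tissue, 1 array each. HP spans 30784 (LP) against 893 (EP) and DPPA5 266 (LP) against 24720 (EP), and the NP array lies near the EP array for some genes, such as GOT1, and near the LP array for others, such as UPK1B.

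The few measured genes of the pluripotency list were lower in LP tissue, and genes of the yolk sac and plasma protein list went both ways. Of 5 pluripotency genes on the array, 3 were measured, and all 3 were lower in LP tissue by 2-fold or more. POU5F1 (14.1 in LP and 32.3 in EP tissue) and TDH (6.5 and 26.7) lay under the floor on both arrays. Besides DPPA5 the measured genes were ZFP42, a pluripotency factor (100 in LP and 373 in EP tissue), and KLF4 (579 and 1550). KLF4, also in the immediate early list, read 487 in NP tissue and 249.5 to 495.9 in ovary. ZFP42 lay within 2-fold when the floor was raised to the 60th percentile. Of 11 measured genes of the yolk sac and plasma protein list, 4 were 2-fold or more higher and 2 lower, with a median log2 ratio of 0.04. APOA2, a protein of high-density lipoprotein, read 14.2 in LP and 957 in EP tissue, at least 11.7-fold lower, and lay under the floor on every other array. APOA1, its partner, read 598 in LP and 2568 in EP tissue but 2783 on the NP array. Transferrin (TF), which carries iron, read 4121 in LP, 574 in EP and 62.0 in NP tissue, 7.18-fold higher in LP tissue. A dimmer TF probe set read 86.6 (LP) and 44.7 (EP). The protease inhibitor A2M read 17356 in LP and 5808 in EP tissue, and SERPINA1 read 215 and 70.0.

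Globin and red cell genes did not follow HBE1. Of 8 measured genes, 2 were 2-fold or more higher in LP tissue and 2 lower, and the median was 0.05. HBB, the beta globin, read 574 in LP, 501 in EP and 1440 in NP tissue. AHSP, which holds free alpha globin, read 638 in LP and 219 in EP tissue, and ALAS2, the first enzyme of haem synthesis in red cells, read 1758 and 768. The transferrin receptor TFRC was lower in LP tissue (623) than in EP tissue (1296). HBM, another globin, read 197 in LP and 177 in EP tissue.

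Placental genes were split between the stages. Of 13 measured genes of the trophoblast list, 3 were 2-fold or more higher in LP tissue, 1 was lower and 9 lay within 2-fold. The insulin-like growth factor IGF2, like PEG10 an imprinted gene, read 16215 in LP, 3019 in EP and 1049 in NP tissue, 5.37-fold higher in LP tissue, and its 9 further measured probe sets all read higher in LP tissue too. PEG3, also imprinted, read 338 in LP and 13.7 in EP tissue, and was within 2-fold with the higher floor. CYP19A1, an aromatase that makes oestrogen, read 30.3 in LP and 596 in EP tissue, at least 7.29-fold lower, and its log2 ratio was -0.98 when its probe sets were averaged. GATA2, TEAD4, HAND1, PLET1, GATA3, TFAP2C, GCM1 and PHLDA2 lay within 2-fold. CYP19A3 was counted with them, but it read 19 in LP tissue, under the floor, and 131 in EP tissue. It was thus at least 1.6-fold lower in LP tissue, while its further measured probe sets had log2 ratios of 0.37 and -0.16. Outside the list, PLAC1, a placenta-specific membrane protein, read 8035 in LP, 635 in EP and 118 in NP tissue and 62.6 or less in ovary. Its ratio was 12.7-fold, and its other probe set was also higher in LP tissue (5259 and 306).

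**Figure D2:**
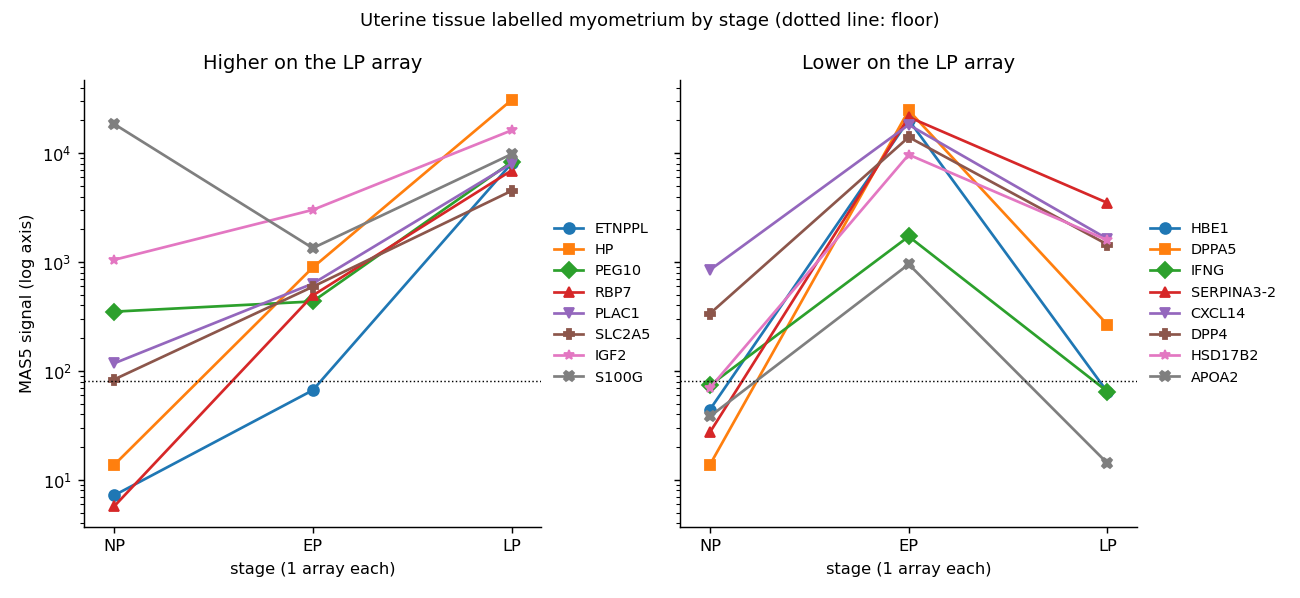
Signals (log axis, MAS5 units) of 8 genes higher and 8 genes lower in LP than in EP uterine tissue across the NP, EP and LP stages, 1 array per point. HP, ETNPPL and RBP7 lie lowest at NP and highest at LP, S100G is high at both ends, and HBE1, DPPA5 and IFNG are high at EP.

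Most genes for proteins secreted by the uterine glands lay within 2-fold between LP and EP tissue, but the dimmer members MUC1, SAL1 and STC1 did not. Of 19 measured genes of the list, 2 were 2-fold or more higher, 2 lower and 15 within 2-fold, and the median was 0.10. UABP-2, which binds uteroferrin, read 28361 in LP and 26905 in EP tissue. Uteroferrin itself (ACP5), an iron-carrying phosphatase, read 31717 and 21477, and osteopontin (SPP1), which links the lining to the conceptus, read 28163 and 28071. The retinol carrier RBP4 read 18751 and 22308. Dimmer members within 2-fold included FUT1, which adds fucose to sugar chains (294 and 275), and the cytokine LIF (431 and 260.0). The first 4 were far dimmer in NP tissue, between 63.8 (UABP-2) and 1297 (SPP1). The members past 2-fold were WFDC2 (26920 in LP and 12886 in EP tissue) and the mucin MUC1 (444 and 123), which were higher, and the salivary lipocalin SAL1 (95.4 and 632) and the hormone stanniocalcin STC1 (170 and 749), which were lower. MUC1 and STC1 lay within 2-fold when probe sets were averaged, and MUC1 also with the higher floor.

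Epithelial genes differed little as a list, with a median of 0.44 and 3 of 19 measured genes 2-fold or more higher in LP tissue and 1 lower. KRT18, a keratin of simple epithelium, read 5762 in LP and 2466 in EP tissue and 5960 in NP tissue. ESRP1, an epithelial splicing factor, stood at the threshold (2216 and 1105). FOXA2, a transcription factor of the uterine glands, was lower in LP tissue at 155, against 461 in EP and 694 in NP tissue, and within 2-fold with the higher floor or averaged probe sets. CDH1 read 7981 in LP and 8192 in EP tissue. Outside the list, 2 uroplakins, membrane proteins of the bladder lining, were higher in LP tissue. UPK1B read 4929 in LP, 371 in EP and 4689 in NP tissue and UPK3A read 1136, 117 and 2950, so both were low at the early stage alone.

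Genes that carry nutrients and minerals showed large differences in single members. The fructose transporter SLC2A5 read 4511 in LP, 594 in EP and 83.5 in NP tissue, 7.59-fold higher in LP tissue. SORD, which makes fructose from sorbitol, was 8.04-fold lower in LP tissue (387 and 3112). Among 17 measured genes of the transporter list, 1 was 2-fold or more higher and 2 were lower, with a median of -0.12. SLC1A5, a glutamine transporter, was higher in LP tissue (2953 and 812). SLC11A2, an iron importer, was lower (128 and 397), as was the glucose transporter SLC2A2 (322 and 651). Of the other glucose transporters, SLC2A1 was lower but fell short of 2-fold (3759 and 7302), and SLC2A3 read slightly higher (5279 and 4127). SLC2A2 had a log2 ratio of -0.98 with a pseudocount in place of the floor, and SLC11A2 was within 2-fold with the higher floor or averaged probe sets. The folate receptor FOLR1 read 8998 and 5368 in LP and EP tissue, and 8.0 in NP tissue. The nucleoside transporter SLC28A3 lay outside the list and read 218 in LP, 1658 in EP and 5758 in NP tissue.

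Of 7 measured calcium and phosphate genes, 1 was 2-fold or more higher in LP tissue and 3 were lower. S100G, a calcium-binding protein that shuttles calcium through epithelial cells, read 9804 in LP, 1345 in EP and 18568 in NP tissue and at most 21.8 in ovary. It was 7.29-fold higher in LP than in EP tissue. TRPV6, the channel that lets calcium in, read 5126 in LP and 4761 in EP tissue. PTHLH, a hormone that acts on calcium transfer in the placenta, was 4.72-fold lower in LP tissue (310 and 1461), as were STC1 and CYP24A1, which breaks down vitamin D (52.7 and 224). The vitamin A genes also differed in direction. RBP7, a cellular retinol-binding protein, read 6937 in LP, 494 in EP and 5.7 in NP tissue, whereas ALDH1A1, which makes retinoic acid, was 11.1-fold lower (1351 in LP, 14994 in EP and 15835 in NP tissue).

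Steroid synthesis genes differed in both directions. Of 21 measured steroid synthesis genes, 6 were 2-fold or more lower in LP tissue and 2 higher (median -0.30). HSD17B2, which converts oestradiol to oestrone, read 1591 in LP, 9701 in EP and 69.9 in NP tissue, 6.10-fold lower in LP tissue, and its other probe set was lower too (297 and 3303). HSD17B1, which runs the opposite reaction, lay under the floor in LP tissue and read 545 in EP tissue, a ratio of at least 6.67-fold. The oestrogen sulfotransferase SULT1E1 read 881 and 3192, HSD17B7 read 1474 and 4088, and CYP17A1 read 92.4 and 218. With CYP19A1, these are the 6. CYP11A1, which makes pregnenolone from cholesterol, read 4452 in LP, 1502 in EP and 22.1 in NP tissue. HSD11B2, which inactivates cortisol, read 13354 in LP, 4577 in EP and 828 in NP tissue. STAR, which brings cholesterol into mitochondria, read 6907 in LP and 5573 in EP tissue.

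Steroid receptor genes were dim in both stages. The progesterone receptor PGR read 99.4 in LP, 216 in EP and 1498 in NP tissue, and the oestrogen receptor ESR1 read 67.8, 98.6 and 902. The glucocorticoid receptor NR3C1 read higher in LP tissue (324 and 108), but a further probe set read lower (43.0 and 104) and the ratio was within 2-fold with the higher floor or averaged probe sets. Of 10 measured genes of that list, 3 were 2-fold or more higher in LP tissue (NR3C1, MSX1 and TSC22D3) and 2 were lower (PGR and FKBP5). MSX1 and TSC22D3 were within 2-fold with averaged probe sets, so each of the 3 higher genes lost that place in an alternative.

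The prostaglandin list had the highest median of all lists, at 1.01, and 4 of its 8 measured genes were 2-fold or more higher in LP tissue and 0 lower. CBR1, a carbonyl reductase that acts on prostaglandin E2, read 12781 in LP, 4954 in EP and 16.1 in NP tissue. The F receptor PTGFR read 3436 in LP and 1320 in EP tissue, the synthase PTGDS read 479 and 149, and PTGS1, which starts prostaglandin synthesis, read 518 and 222. PTGS2, the inducible form, read 1862 and 1197 and lay within 2-fold. PTGFR and PTGS1 were within 2-fold when probe sets were averaged, and PTGDS with the higher floor. Over all measured genes the shares past 2-fold are those given above, 5.72% and 5.56%.

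**Figure D3:**
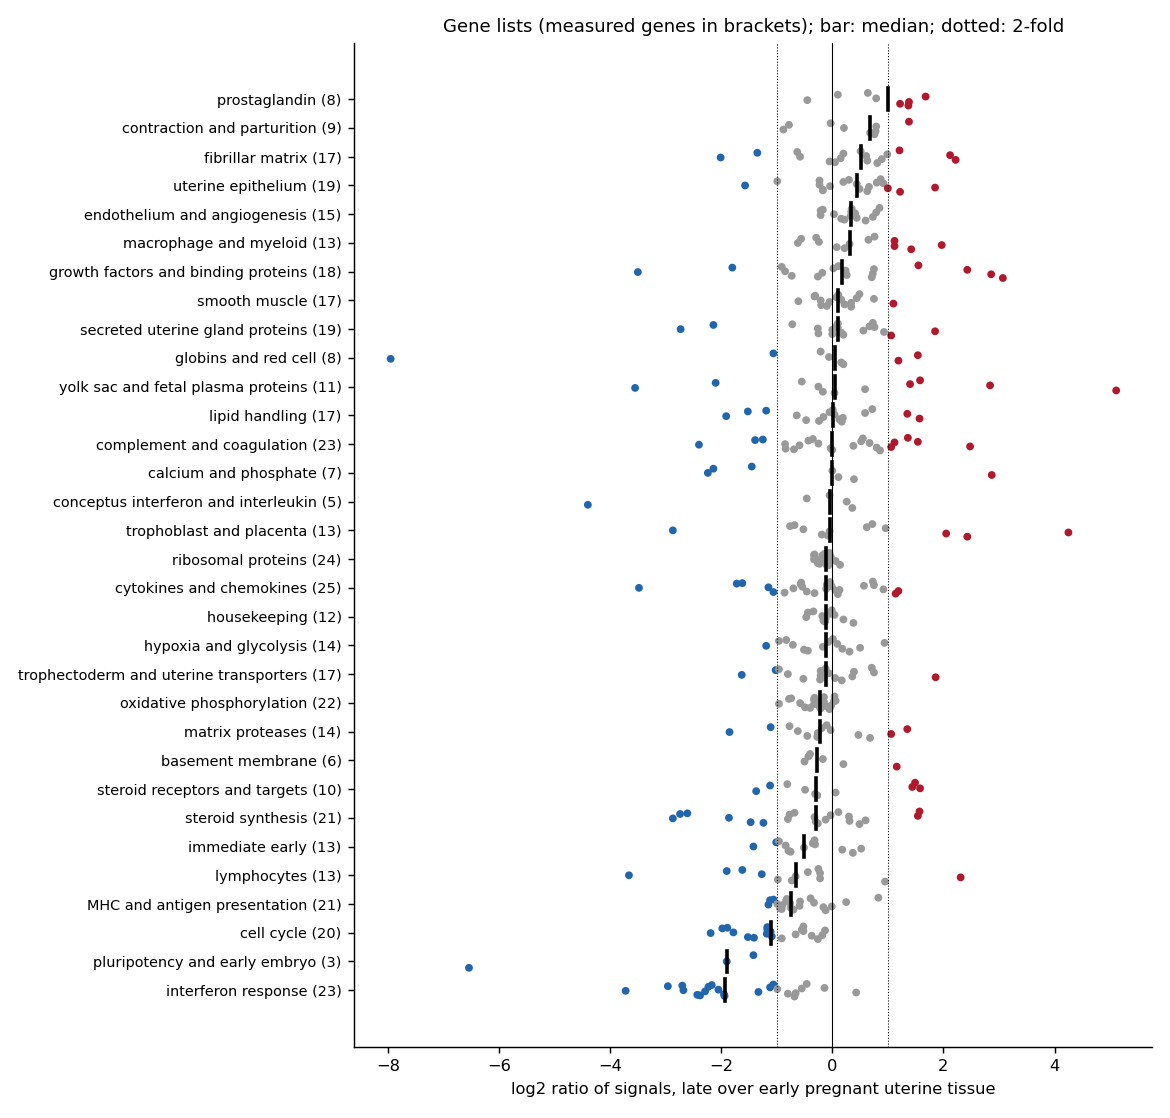
Log2 ratios, LP over EP uterine tissue, of the measured genes of 32 lists; each point is a gene, red at 2-fold or more higher and blue at 2-fold or more lower in LP tissue, and the black bar is the list's median. The interferon response list lies lowest (median -1.94) and the prostaglandin list highest (1.01).

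Genes induced by interferon were lower in LP tissue as a group. Of 23 measured genes, 22 had a ratio below 1, and 15 were lower by 2-fold or more and 0 higher. The median was -1.94 (-1.41 to -1.94 over the alternatives). RSAD2, an antiviral enzyme, read 69.3 in LP, 1076 in EP and 366 in NP tissue. The ubiquitin-like ISG15 read 255, 1988 and 604 in that order, and MX1, an antiviral GTPase, read 299.9, 1951 and 1974. IFIT3 read 252 in LP, 1612 in EP and 1239 in NP tissue, OAS1 527, 2736 and 4620, and GBP1 435, 1673 and 1887. XAF1 read 25.5, 399 and 753 in that order, and its LP over EP ratio was within 2-fold with the higher floor. The NP array thus read higher than the EP array for some members, such as OAS1, and lower for others, such as RSAD2. The exception in sign, MX2, read 110 in LP and 70.7 in EP tissue. IFNG itself is the gene at least 21.0-fold lower described above, and IFNA1 lay close to the floor on both arrays (56.7 and 84.8). Whether IFNG has a part in the lower interferon response was not tested.

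The same list was also lower in LP than in EP ovary, on other arrays. Whether the ovaries came from the same animals as the uterine tissue is not given. There 12 of 22 measured genes were lower by 2-fold or more and none was higher, at a median of -1.15, against 2.37% of all 5405 measured genes lower and 1.31% higher. MX1 read 453 in LP, 2156 in EP and 9325 in NP ovary, ISG15 467, 1872 and 6401, and RSAD2 75.1, 759 and 2412. IFNG lay under the floor on all ovary arrays.

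**Figure D4:**
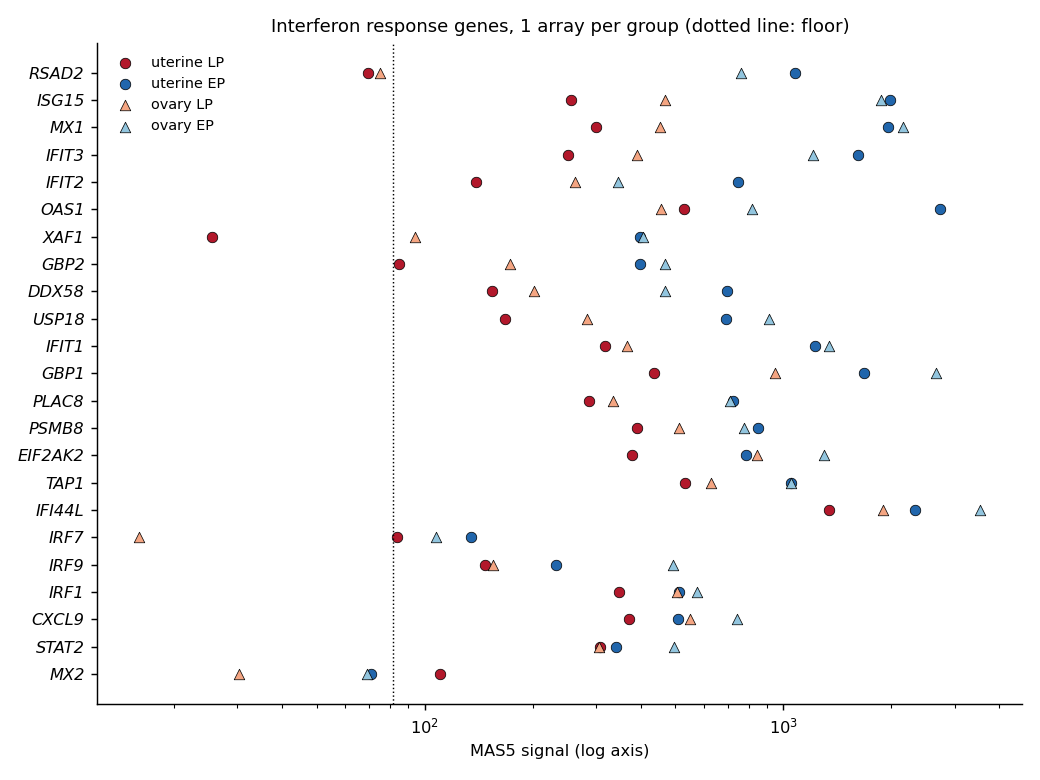
Signals (log axis, MAS5 units) of the 23 interferon response genes measured in uterine tissue, with LP in reds and EP in blues, circles for uterine tissue and triangles for ovary, 1 array each. In uterine tissue LP lies left of EP for every gene except MX2, and RSAD2 and XAF1 are under the floor in LP tissue.

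Lymphocyte and antigen presentation genes lay lower in LP tissue and macrophage genes did not. The lymphocyte list (13 measured) had 4 genes 2-fold or more lower in LP tissue, 1 higher and a median of -0.66. JCHAIN, the joining chain of secreted antibodies, read 96.6 in LP, 1224 in EP and 6347 in NP tissue. The T cell gene CD2 read 93.4 in LP, 348 in EP and 588 in NP tissue, the chemokine CCL5 102, 313 and 806, and the natural killer receptor KLRK1 57.8, 197 and 737. The defining T cell genes CD3D and CD8A lay under the floor in LP tissue (16.5 and 50.1) and read 111 and 161 in EP tissue. IL2RG, a cytokine receptor chain, went the other way (703 in LP and 142 in EP tissue). CD2 and CCL5 were within 2-fold with the higher floor. The 4 lymphocyte markers summed to 267 in LP tissue, with 2 above the floor, and to 746 in EP tissue, with 4 above it, and the part of lymphocytes in the other differences was not tested. Of 21 antigen presentation genes, 19 lay below 0, and 3 were 2-fold or more lower in LP tissue: SLA-DRA (1520 and 3380), SLA-DQA1 (902 and 1874) and the proteasome subunit PSMB8 (392 and 851). B2M read 28615 and 28762. Of 13 macrophage genes, 4 were 2-fold or more higher and 0 lower (median 0.31), namely S100A12, the haemoglobin scavenger receptor CD163 (1193 and 445), C1QA and S100A9. S100A12 was within 2-fold with the higher floor and CD163 with averaged probe sets.

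Secreted signals of the immune and growth factor lists differed one by one. CXCL14, a chemokine, read 1634 in LP, 18246 in EP and 848 in NP tissue, 11.2-fold lower in LP tissue, and its other probe set was lower by about as much (734 and 6953). DKK1, a Wnt inhibitor, was 11.3-fold lower (364 and 4120), while SFRP1, another Wnt inhibitor, was 7.25-fold higher (1540 and 213). IGFBP2, which binds insulin-like growth factors, was 8.39-fold higher in LP tissue (10938 and 1303). Of 23 measured complement genes, 5 were 2-fold or more higher and 3 lower, against 5.72% and 5.56% of all measured genes. CFB, of the alternative pathway, read 2175 in LP and 390 in EP tissue, and C4A, of the classical pathway, 411 and 2172. C1S and C3 were lower as well (3357 and 8814, and 538 and 1278).

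Genes of cell division were lower in LP tissue. All 20 measured genes lay below 0, 11 of them by 2-fold or more, and the median was -1.10 (-0.91 to -1.17 over the alternatives). The cyclin CCNB1 read 452 in LP, 2058 in EP and 4873 in NP tissue, and the topoisomerase TOP2A 501, 1854 and 4122. CENPF read 137 in LP and 540 in EP tissue and BIRC5 267 and 709. CCNB2 and TYMS lay within 2-fold, CCNB2 with the higher floor and TYMS with averaged probe sets. In ovary 1 of 21 genes was higher by 2-fold or more and 0 lower, against 1.31% and 2.37% of all measured genes. The median there was 0.64.

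Smooth muscle genes lay close to 0 as a list, and contraction genes lay mostly above it. Of 17 measured smooth muscle genes, 1, DES, was 2-fold or more higher in LP tissue and 0 lower. The list's median of 0.11 turned to -0.05 at the lowest of the alternatives. ACTA2, the smooth muscle actin, read 14389 in LP and 13313 in EP tissue, and TAGLN 3086 and 2935. DES read 175 and 70.4, and was within 2-fold when probe sets were averaged. GJA1, the gap junction protein that couples uterine muscle cells before birth, read 10359 and 6120. The contraction list had a median of 0.68 (0.0 to 0.77 over the alternatives), the second highest of the lists. Of its 9 measured genes, 6 lay above 0 and 1, PTGFR, was past 2-fold, though not with averaged probe sets. Within 2-fold were the prostaglandin receptor PTGER3 (146 and 84.4), the calcium pump regulator PLN (616 and 359) and endothelin EDN1 (507 and 316). The 3 genes below 0 were RLN2 (75.4 and 150), OXT (5.6 and 141) and EDNRA (158 and 161), with RLN2 and OXT under the floor in LP tissue. PTGFR and PTGER3 are also in the prostaglandin list, so the lists with the highest medians share genes. The oxytocin receptor OXTR lay under the floor on both arrays (79.2 in LP and 6.8 in EP tissue).

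Matrix genes differed in both directions, with 3 of 17 measured fibrillar genes 2-fold or more higher and 2 lower. Fibronectin (FN1) read 16505 in LP and 7132 in EP tissue, but 0.56 was its log2 ratio with averaged probe sets. THBS2 read 380 in LP and 60.9 in EP tissue and tenascin TNC 355 and 7.4, so that both lay under the floor in EP tissue, and both were within 2-fold with the higher floor. COL3A1 (181 and 728) and the cross-linking enzyme LOX (396 and 1008) were lower in LP tissue, LOX within 2-fold with averaged probe sets. LOXL1, a relative of LOX, was 7.05-fold higher (898 and 127) and the microfibril protein MFAP5 6.66-fold (4084 and 614). The protease ADAMTS1 was lower in LP tissue (1635 and 5879), and so was the protease inhibitor TIMP2 (6928 and 14936), which was within 2-fold with averaged probe sets. Of 15 endothelial genes, 0 were past 2-fold in either direction, and PECAM1, an adhesion molecule of vessels, read 2200 in LP and 1888 in EP tissue.

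In lists of routine cell functions 0 genes passed 2-fold, and most of their ribosomal and housekeeping genes were bright. In the ribosomal protein list 0 of 24 genes passed 2-fold and the log2 ratios ran between -0.33 and 0.14. In the oxidative phosphorylation list 0 of 22 passed, with ratios of -0.96 to 0.06 and 19 below 0. None of the 12 housekeeping genes passed 2-fold, and GAPDH read 22903 in LP and 23344 in EP tissue. Lipid handling had 2 genes higher and 3 lower of 17, with lipoprotein lipase LPL (365 and 1368) and the fatty acid carrier FABP3 (1502 and 4305) among the lower. Both higher genes were within 2-fold in an alternative, FABP4 with the higher floor and FASN with averaged probe sets. Immediate early genes had a median of -0.51, with KLF4 and EGR1 2-fold or more lower of 13, EGR1 at a log2 ratio of -1.01 and within 2-fold with a pseudocount or averaged probe sets.

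Among the remaining genes with the highest ratios were AOAH, which removes fatty acids from bacterial lipopolysaccharide (20.9-fold, 3766 in LP and 181 in EP tissue), FAXDC2 (13.3-fold), C1QTNF2 (12.5-fold), PDGFRL (8.88-fold), the cytosolic aminotransferase GOT1 (8.10-fold, 8203 and 1013), PLBD2 (8.01-fold) and TMEM86A (6.99-fold). Genes under the floor in EP tissue included ADAMDEC1, bright in ovary (9201 to 14843) and at 1304 in LP uterine tissue, PHEROC at least 11.2-fold higher, the trefoil peptide TFF2 at least 8.52-fold and the lipopolysaccharide-binding protein LBP at least 7.73-fold. CASQ2, HEPACAM2, MYOM2, IVL and ANKRD1 were at least 5.77-fold to 7.18-fold higher. Among genes above the floor on both arrays, the lowest after DPPA5 were SERPINB7 (19.3-fold lower, 186 in LP and 3598 in EP tissue) and STEAP1 (19.2-fold, 96.8 and 1856). CTH, which makes cysteine, was 10.8-fold lower, the peptidase DPP4 9.69-fold, FMO1 6.55-fold, GPX3 6.34-fold, the ceramidase ASAH1 6.17-fold and SERPINA3-2 6.14-fold. GSTA1 was 6.46-fold lower by its brightest probe set, whereas a further one read higher in LP tissue (1742 and 418). POPDC3, ARPP21 and CHEK1 lay under the floor in LP tissue and were at least 8.18-fold, 5.64-fold and 5.12-fold lower. ARPP21, CHEK1, IVL and ANKRD1 were within 2-fold with the higher floor.

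Some genes past 2-fold lay under the floor on the arrays that the ratio did not use. Of the 321 genes higher in LP tissue, 64 (19.9%) lay under the floor on the NP array, and 51 (15.9%) on all 3 ovary arrays. For the 312 lower genes these shares were 9.62% and 10.3%, and over all 5613 measured genes 5.79% and 5.67%. Among them, 66 of the higher and 49 of the lower genes were under the floor on 1 of the arrays compared, as were 456 of all measured genes. A gene that passed the filter through 1 array has less signal elsewhere by that choice, so nothing is read from these shares. For 160 genes past 2-fold the next brightest probe set was measured. It went the same way in 146, by 2-fold or more in 66, and passed 2-fold the opposite way in 0. Still dimmer probe sets were not counted, and 1 of GSTA1 did pass 2-fold the opposite way (1742 in LP and 418 in EP tissue).

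More genes were past 2-fold between the stages in uterine tissue than in ovary. In ovary, 71 of 5405 measured genes (1.31%) were 2-fold or more higher in LP and 128 (2.37%) lower, or 127 higher and 99 lower when the arrays were centred on their medians. Signals of the LP and EP arrays correlated across genes, which are not independent replicates, at Pearson's r of 0.927 in uterine tissue (5157 genes) and 0.971 in ovary (5110 genes). The log2 ratios of the tissues had a Pearson's r of -0.037 over 4830 genes above the floor on all 4 arrays. Among 5226 genes measured in both tissues, 26 were lower in both, 9.52% of the 273 lower in uterine tissue and 21.0% of the 124 lower in ovary. Higher in both were 10 genes, 3.85% of 260 and 16.4% of 61. Opposite ways were taken by 16 genes higher in uterine tissue and lower in ovary (6.15% and 12.9%) and by 15 lower in uterine tissue and higher in ovary (5.49% and 24.6%). For all measured genes in ovary, the shares were the 1.31% and 2.37% given above. HP and TF were among the genes higher in both, TF at 372 in LP and 62.1 in EP ovary.

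**Figure D5:**
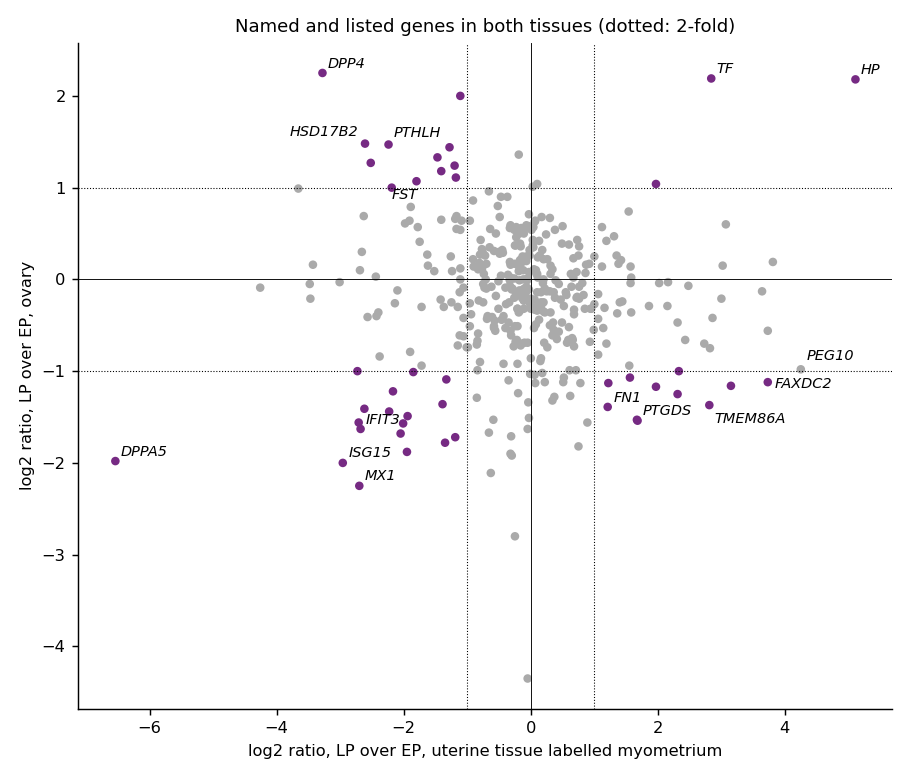
Log2 ratios, LP over EP, of named and listed genes above the floor on both uterine arrays, with uterine tissue on the x axis and ovary on the y axis; purple points are 2-fold or more apart in both tissues and dotted lines mark 2-fold. HP lies high in both, DPPA5, MX1 and ISG15 low in both, and DPP4 is low in LP uterine tissue (-3.28) and high in LP ovary (2.25).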

How the data were processed

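The members and gene lists were chosen with earlier results of these data known. Per the labels' protocols, tissue was frozen, total RNA extracted with Trizol, and 6 ug of it turned into biotinylated cRNA and hybridised to single-channel Affymetrix arrays. The authors deposited linear intensity per probe set, computed with MAS5 per the submitters' processing notes, whose version and settings the labels do not give. The trimmed mean (2% from each end) was 500.1 on every array, so a change in total RNA cannot be seen. Of 24123 probe sets, 124 controls were left out.

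Gene symbols came from the platform table: 10069 probe sets had 1 symbol, 198 several and 13732 none. Of those with 1, 9961 were checked by gene identifier against RefSeq records (0 changed) and 108 kept from the table. Leaving out 295 with a locus number alone, 9774 named 6567 genes. Of these, 2207 had several probe sets, and the brightest over all 6 arrays was used. Levels were not compared between probe sets. No genome or sequence table was given, so positions and sequences are not shown.

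Signals were floored at 81.7, log2 was taken, and the LP minus EP difference was computed. Lists are described by counts and medians, with no test, since each group is 1 array. Named were the 5 markers given for the comparison, the 20 highest and 20 lowest ratios above the floor on both arrays, 10 per direction by bound, and up to 6 genes per list by size of ratio. Other genes named for their role or for contrast were chosen after their values were seen. The ratio and counts were tested on simulated data. Alternatives were the 25th and 60th percentile as floor, a pseudocount of 16, quantile normalization, centring on the median, the filter on low signals, averaged probe sets and a threshold of 3-fold. Precision is limited by having 1 array per group. The tools were Python 3.11.15, numpy 2.4.6, pandas 2.3.3, scipy 1.17.1 and matplotlib 3.10.9.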

Additional observations from a re-analysis of the deposited data

Results flagged for a closer look

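In 9 genes named by the rule, the LP over EP difference ran in opposite directions in uterine tissue and ovary, by 2-fold or more in both and above the floor on all 4 arrays. The difference between the tissues was not tested, since each value rests on 1 array, and 22 of 4830 genes met the same condition. DPP4, a peptidase, had log2 ratios of -3.28 in uterine tissue and 2.25 in ovary. HSD17B2 had -2.61 and 1.48, PTHLH -2.24 and 1.47, and follistatin FST -1.80 and 1.07 in the same order. Running the other way were FN1 (1.21 and -1.39), PTGDS (1.68 and -1.54), TMEM86A (2.81 and -1.37), PDGFRL (3.15 and -1.16) and FAXDC2 (3.73 and -1.12). FST and PTGDS were within 2-fold in uterine tissue with the higher floor, and FN1 and FST with averaged probe sets.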

How the results depend on the processing

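No paired analysis was possible because each group is 1 array. Of 143 rule-named genes past 2-fold, all kept their direction wherever a value could be had. Under every alternative that gave them a value, 101 stayed past 2-fold. At the 60th percentile, 22 of the 219 rule-named genes lay under the floor on both arrays and gave no value. Some of the 101, such as PGR, KLRK1, CYP24A1 and SERPINA1, were therefore not put to that floor. In uterine tissue, LP against EP, the floor at the 25th percentile gave 1514 probe sets higher and 1423 lower. The 60th percentile gave 502 and 428 (203 and 196 genes), and 3-fold gave 286 and 282 (119 and 107 genes), fewer by construction. In ovary the 25th percentile gave 392 and 893 probe sets and 224 genes lower, the 60th gave 104 and 181 (42 and 63 genes), and 3-fold gave 43 and 67 (19 and 24 genes). Centring gave 127 genes higher in ovary. The other 46 of 68 alternative counts were within 1.5 times. Medians of the lists for calcium, complement, globins, lipid handling, smooth muscle, steroid receptors and trophoblast changed sign in at least 1 alternative, all from a main value within 0.3 of 0. Low signal limits dim genes most.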

Other observations

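The following groups were put together after their genes had been seen, so their counts describe these arrays and support nothing further. Of 7 measured genes grouped for the handling of bacterial lipopolysaccharide, 3 were 2-fold or more higher in LP than in EP uterine tissue and 1 was lower. BPI, which binds and neutralises lipopolysaccharide, read 17907 in LP, 3553 in EP and 118 in NP tissue and at most 199 in ovary. AOAH and LBP were the others, while the receptor genes CD14 (212 in LP and 200.4 in EP tissue) and TLR4 (1260 and 651) lay within 2-fold. The 1 lower gene, PGLYRP1 (29.4 and 223), binds bacterial peptidoglycan rather than lipopolysaccharide.

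Of 12 imprinted genes, 6 were 2-fold or more higher in LP tissue and 0 lower. Beside PEG10, PEG3 and IGF2 these were PLAGL1 (4318 and 1464), NAP1L5 (6190 and 2720) and DIRAS3 (331 and 125). SNRPN, NDN and GRB10 lay within 2-fold. Of 12 genes of thiol and oxidative stress defence, 6 were lower in LP tissue, among them HMOX1, which degrades haem (487 and 2886), and NQO1 (536 and 1769), and 1 was higher, GPX2 (1397 and 655). In serine synthesis, PHGDH, the first enzyme, read 1080 in LP and 436 in EP tissue and PSPH, the last, 4257 and 14289, while PSAT1 between them read 2464 in both. FECH, the last enzyme of haem synthesis, read 8586 in LP and 2119 in EP tissue, and UROD, which acts earlier, 1011 and 2421. GM2A, which presents gangliosides for breakdown, read 16837 in LP and 3785 in EP tissue, and HEXA, the enzyme it serves, 10945 and 5490.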
